A study of Mus musculus with 28 samples.

Results

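Regulatory T (Treg) cells of the thymus were set against the other CD4 single-positive thymocytes (CD4SP cells) of the same kind of mouse. The comparison took 3 thymic Treg libraries and 3 thymic CD4SP libraries by their titles, 6 of the 28 libraries in all. Every mouse was a male aged 6 to 8 weeks whose Foxp3 gene carried a gfp reporter, which marks Treg cells for sorting. In the wild-type (WT) groups the reporter allele was otherwise intact. In the 4 thymic Treg and 4 thymic CD4SP libraries called KO it lacked CNS3, an enhancer within Foxp3, and these serve below as a second set for the same comparison. The series also holds splenic Treg libraries of both genotypes, which enter the fit (the filter on low counts, the scaling and the estimate of the spread) but no comparison. The labels call the CD4SP cells non-Treg and do not explain the m in their title, mCD4SP. The design text speaks of 2 littermates and the labels tie no library to an animal, so p-values measure the spread between these libraries, which may be technical.

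Treg cells restrain other immune cells, and many of them arise in the thymus from CD4 thymocytes whose T cell receptor (TCR) binds self-antigen strongly. TCR and CD28 signals, relayed in part by NF-kB, raise the IL-2 receptor, and IL-2 acting through STAT5 helps to switch on Foxp3, the transcription factor that maintains the lineage. CD4SP cells that escape this path mature, gain receptors for exit and leave as conventional T cells.

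Treg libraries held 37840636, 29086952 and 38516269 counts in genes, against 27174880, 40754492 and 37632109 counts in CD4SP libraries. Between 15029 and 15339 genes had at least 1 count in a Treg library, against 14295 to 14847 in a CD4SP library. Reads placed once but outside any gene made up 47.5 ± 1.55% in Treg and 44.2 ± 1.53% of such reads in CD4SP libraries (SD, n = 3 each). This difference had a two-sided exact permutation p of 0.1, the smallest that 3 against 3 libraries allow. Levels are CPM, each count divided by the TMM-scaled library size, and fold changes are log2 values of Treg over CD4SP with a standard error (SE). A gene is called where the edgeR quasi-likelihood test gave an adjusted p below 0.05. In these bulk samples, fewer cells of a kind and less RNA per cell cannot be told apart.

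Foxp3 (chrX:7579676-7595243 in GRCm38) checks the labels, since its reporter was the basis of the sort. It stood at 671, 643 and 642 CPM in Treg libraries, against 3.23, 3.38 and 3.49 CPM in CD4SP libraries. The log2 fold change was 7.59 (SE 0.133, adjusted p = 5.44e-26). Cd4 marks both populations. It read 806, 824 and 859 CPM in Treg cells, against 1053, 1182 and 957 CPM in CD4SP cells. Its groups did not overlap, yet the log2 change of -0.36 did not pass (adjusted p = 0.0651). Cd4 did pass with the replicate numbers as a block (-0.35, adjusted p = 0.035), with no filter on low counts (adjusted p = 0.0421) and with the 6 compared libraries alone (adjusted p = 0.000714).

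The 2 populations differed over a large part of the transcriptome, and the change was lopsided in size. Of 13338 genes tested, 6447 were called, which is 48.3%. In Treg cells 3568 genes were higher (26.8%) and 2879 were lower (21.6%). The median change was 1.18 among the higher and -0.45 among the lower genes, and 0.0267 over all genes tested. Beyond 1 log2 unit, 1948 genes were higher (14.6%) and 455 were lower (3.41%). Much of the large rise sat at low levels. Of the 903 genes higher by more than 3 log2 units, the median Treg level was 1.74 CPM, and 177 averaged at least 10 CPM in Treg cells. Among the 8587 genes with at least 10 CPM in either group, 1989 were higher and 2545 were lower. Libraries of the 2 groups did not overlap in 4188 tested genes on the higher side (31.4%) and 3645 on the lower side (27.3%). A lack of overlap in a named gene is therefore common in this contrast and does not set that gene apart. Since close to 1 gene in 2 is called, the counts of list members below are read against these shares.

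**Figure D1:**
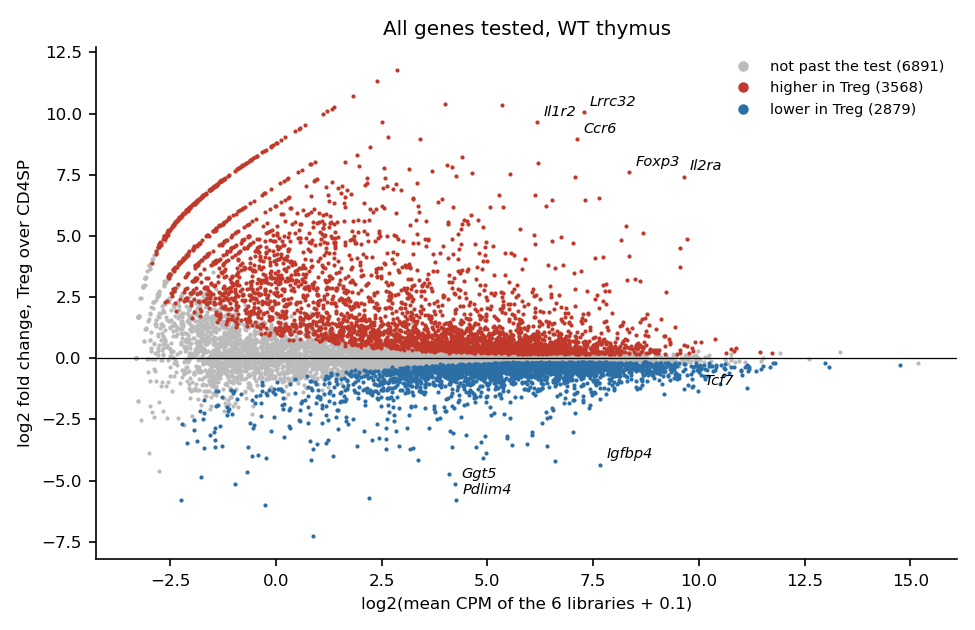
Each point is 1 of the 13338 genes tested, placed by its mean level over the 6 libraries (x axis, log2 of mean CPM plus 0.1) and its log2 fold change of Treg over CD4SP (y axis). Red points are the 3568 genes higher in Treg, blue points the 2879 lower, grey points the rest. Large rises run to more than 10 log2 units while few falls pass 5, and the arcs at the left are genes with very few counts in CD4SP cells.

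Genes long used to define Treg cells were higher in Treg cells throughout. All 30 tested members of the Treg signature list were called higher, 29 of them by more than 1 log2 unit, with a median change of 4.84. This list, like the others, was chosen with earlier results of these data known, so the count is a description and not independent support. Il2ra, the high-affinity IL-2 receptor subunit, stood at 1715, 1496 and 1548 CPM in Treg libraries, against 8.38, 7.77 and 11.6 CPM in CD4SP libraries (log2 change 7.42, SE 0.538, adjusted p = 2.64e-12). Ctla4, an inhibitory receptor that removes CD80 and CD86 from antigen-presenting cells, stood at 560, 558 and 540 CPM in Treg, against 21.7, 19.6 and 17.7 CPM in CD4SP libraries (log2 change 4.82). Ikzf2, the transcription factor Helios, stood at 1744, 1544 and 1611 CPM in Treg, against 44.7, 53.0 and 71.0 CPM in CD4SP libraries (log2 change 4.86). In each of the 3 genes the lowest Treg library lay far above the highest CD4SP library. Nrp1, a semaphorin co-receptor common on thymic Treg cells, was also higher, at 918, 730 and 728 CPM in Treg and 19.1, 25.8 and 22.4 CPM in CD4SP cells (log2 change 5.14). The smallest rise of the list belonged to Icos, a co-stimulatory receptor, with 454 ± 39.4 CPM in Treg and 298 ± 12.8 CPM in CD4SP cells (SD, n = 3 each; log2 change 0.61). Folr4, the receptor FR4, differed less than most because CD4SP cells also held it, at 774, 633 and 646 CPM in Treg and 243, 180 and 170 CPM in CD4SP cells (log2 change 1.79).

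**Figure D2:**
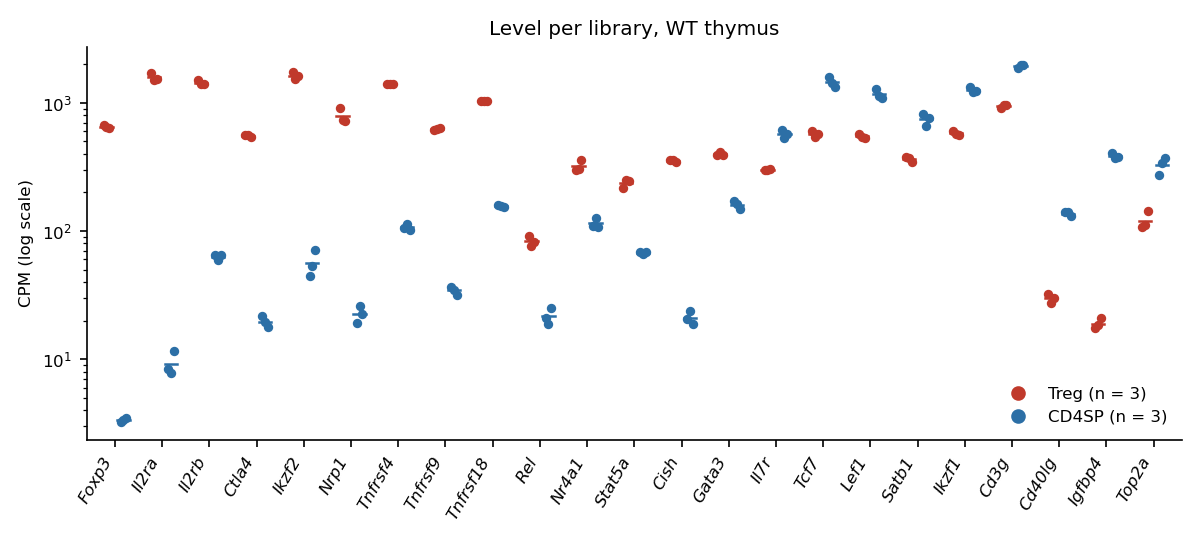
Level of 23 named genes in each library (y axis, CPM on a log scale), with Treg libraries in red left of CD4SP libraries in blue, 3 of each, and a bar at each mean. From Foxp3 to Gata3 every Treg library lies above every CD4SP library, and from Il7r to Top2a every Treg library lies below.

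The IL-2 pathway was split between its parts. Of the 23 tested genes on the IL-2 receptor, STAT5 and SOCS list, 13 were higher and 5 lower, with a median change of 0.67. Il2rb, the signalling chain shared with IL-15, stood at 1502, 1408 and 1417 CPM in Treg, against 65.2, 59.6 and 65.0 CPM in CD4SP libraries (log2 change 4.51, adjusted p = 1.27e-23). The third chain, Il2rg, went the other way, with 2041 ± 10.98 CPM in Treg and 2608 ± 113 CPM in CD4SP cells (log2 change -0.35). Il2, the cytokine itself, had 21 counts over the Treg libraries and 21 over the CD4SP libraries, and no difference was detectable at that depth. Stat5a, which relays the signal, stood at 218, 249 and 245 CPM in Treg, against 68.1, 66.8 and 68.5 CPM in CD4SP libraries (log2 change 1.81). Feedback inhibitors of the SOCS family differed among themselves, and Socs3 was not called. Cish, an inhibitor of cytokine receptor signalling, stood at 362, 356 and 346 CPM in Treg, against 20.4, 23.7 and 18.7 CPM in CD4SP libraries (log2 change 4.08, SE 0.0958). Socs2, of the same family, stood at 30.7, 34.8 and 41.1 CPM in Treg, against 0.148, 0.0757 and 0.241 CPM in CD4SP libraries, with 16 counts over the CD4SP group (log2 change 7.81). Il7r, the IL-7 receptor that keeps conventional T cells alive, was lower in Treg cells, at 300, 302 and 304 CPM against 617, 528 and 572 CPM in CD4SP cells (log2 change -0.92). Pim2, a kinase downstream of cytokines, fell with it, with 36.8 ± 5.32 CPM in Treg and 86.8 ± 4.997 CPM in CD4SP cells (log2 change -1.24).

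Genes induced by the TCR were mostly higher in Treg cells. Of 28 tested members 20 were higher and 2 lower, with a median change of 1.33. Nr4a1, an orphan nuclear receptor whose level follows TCR signal strength, stood at 300, 305 and 357 CPM in Treg, against 109, 126 and 108 CPM in CD4SP libraries (log2 change 1.48, adjusted p = 1.39e-12). Rgs1, which damps chemokine receptor signalling, stood at 594, 636 and 584 CPM in Treg, against 12.2, 16.7 and 13.2 CPM in CD4SP libraries (log2 change 5.42). The ERK phosphatase Dusp4 stood at 40.1, 44.7 and 43.2 CPM in Treg, against 0.965, 0.605 and 0.993 CPM in CD4SP libraries (log2 change 5.66). The groups of all 3 genes were far apart. Rises were smaller for Irf4 (log2 change 1.23), Myc (0.75), Egr2 (0.49) and Cd69 (0.42). Cd5, a surface brake on the TCR, stood at 850, 820 and 840 CPM in Treg and 791, 632 and 591 CPM in CD4SP cells (log2 change 0.32), and without CD4SP library 3 its change was 0.25 and no longer passed (adjusted p = 0.0719). Those that fell were Dusp6, another ERK phosphatase (-0.77), and the immediate-early gene Ier2 (-0.32), which lost its call without Treg library 1 (-0.26, adjusted p = 0.0547). Egr1 and Nfatc1, named here after their values were seen, were not called, at 69.5 ± 0.477 and 140 ± 0.674 CPM in Treg and 72.4 ± 1.81 and 147 ± 14.6 CPM in CD4SP cells. Immediate-early genes also answer to tissue handling. On a list of 17 handling genes 7 were higher and 1 lower. Jun was among the higher, at 39.8, 36.0 and 49.1 CPM in Treg and 8.72, 6.28 and 15.6 CPM in CD4SP cells, while Fos and Hspa1a were not called. Fos passed as higher with the replicate block (0.57, adjusted p = 0.00259) and with the 6 compared libraries alone (0.57, adjusted p = 0.0158). The count lower was 3 in both of those fits and 0 without Treg library 1. The part of handling in the TCR list was not tested.

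Receptors of the TNF and co-stimulatory families followed the same direction, with named exceptions. On the TNF receptor list 12 of 16 tested genes were higher and 3 lower, with a median change of 1.08. Tnfrsf4 (OX40) stood at 1411, 1406 and 1394 CPM in Treg, against 105, 113 and 102 CPM in CD4SP libraries (log2 change 3.72). Tnfrsf9 (4-1BB) stood at 612, 622 and 634 CPM in Treg, against 36.8, 34.8 and 31.7 CPM in CD4SP libraries (log2 change 4.18). Tnfrsf18 (GITR) stood at 1027, 1031 and 1043 CPM in Treg, against 160, 158 and 154 CPM in CD4SP libraries (log2 change 2.72). All 3 are co-stimulatory receptors, and their Treg libraries agreed within a few percent. The lower ones were Tnfrsf1a, the TNF receptor with a death domain (-0.77), Tnfrsf14 (-0.58) and Tnfrsf26 (-0.27). The last lost its call without Treg library 3 (-0.17, adjusted p = 0.186), without CD4SP library 1 (-0.18, adjusted p = 0.165) and without CD4SP library 2 (-0.27, adjusted p = 0.0645). Among co-stimulatory and inhibitory receptors 18 of 24 were higher and 4 lower, with a median change of 1.19. Tigit, an inhibitory receptor for nectin-like ligands, stood at 89.1, 91.0 and 97.8 CPM in Treg, against 0.853, 0.353 and 0.403 CPM in CD4SP libraries (log2 change 7.51). Pdcd1 (PD-1) stood at 202, 253 and 257 CPM in Treg, against 30.2, 35.5 and 34.4 CPM in CD4SP libraries (log2 change 2.83). Cd40lg, the helper signal that T cells give to B cells and dendritic cells, was lower in Treg, at 32.2, 27.7 and 30.0 CPM against 140, 141 and 130 CPM in CD4SP cells (log2 change -2.19, adjusted p = 1.53e-15). Cd28, the main co-stimulator, was lower by a small amount, at 834, 815 and 792 CPM in Treg and 1121, 1027 and 1018 CPM in CD4SP cells (log2 change -0.38).

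The NF-kB list moved by modest amounts, with the inducible subunits and inhibitors in front. Of 27 tested members 17 were higher and 3 lower, with a median change of 0.41. Rel, the subunit c-Rel that thymic Treg cells require, stood at 91.2, 76.5 and 82.0 CPM in Treg, against 20.9, 18.9 and 24.9 CPM in CD4SP libraries (log2 change 1.95, SE 0.121, adjusted p = 8.63e-14). Nfkb2, the precursor of p52, stood at 44.8, 62.3 and 61.2 CPM in Treg, against 16.5, 17.3 and 19.2 CPM in CD4SP libraries (log2 change 1.67). Traf1, an adaptor of TNF receptors, stood at 192, 171 and 174 CPM in Treg, against 80.5, 58.9 and 56.1 CPM in CD4SP libraries (log2 change 1.46). In none of them did the groups overlap. Nfkbid, an atypical inhibitor protein that binds NF-kB in the nucleus, rose less (log2 change 0.61). Among the 3 lower genes were Malt1, which carries the TCR signal to the kinase complex (-0.81), and Cyld, a deubiquitinase (-0.26).

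Promoters of NF-kB genes that rose are shown because several hold a letter match to an NF-kB site. The motif searched was GGG, then a pair of any bases, then TTTCC, on both strands of the 250 bases before each RefSeq gene start in GRCm38.p6. It was found in 1.41% of all 32851 such windows. Of the NF-kB list, 21 genes had 30 windows, and 7 windows of 6 genes held it: Rel, Nfkb2, Nfkbia, Tnfaip3 and Traf3, which were higher in Treg cells, and Cyld, which was lower. Nfkbia and Tnfaip3, both feedback inhibitors of the pathway and chosen after their values and matches were seen, had log2 changes of 0.93 and 1.70. Capitals mark the match, which lies on the opposite strand in Rel, Nfkbia and Tnfaip3. The match begins 91 bases before the start of Rel, 29 before Nfkbia, 12 before Tnfaip3 and 11 before the first start of Nfkb2. The windows are chr11:23770970-23771219 on the minus strand (Rel), chr12:55492648-55492897 on the minus strand (Nfkbia), chr10:19015411-19015660 on the minus strand (Tnfaip3) and chr19:46304487-46304736 on the plus strand (Nfkb2).
Rel: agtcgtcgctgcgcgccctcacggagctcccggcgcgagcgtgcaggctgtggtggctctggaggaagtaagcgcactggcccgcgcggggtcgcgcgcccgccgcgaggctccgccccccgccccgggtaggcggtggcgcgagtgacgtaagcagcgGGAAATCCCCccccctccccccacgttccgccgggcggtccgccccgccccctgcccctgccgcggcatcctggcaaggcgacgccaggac
Nfkbia: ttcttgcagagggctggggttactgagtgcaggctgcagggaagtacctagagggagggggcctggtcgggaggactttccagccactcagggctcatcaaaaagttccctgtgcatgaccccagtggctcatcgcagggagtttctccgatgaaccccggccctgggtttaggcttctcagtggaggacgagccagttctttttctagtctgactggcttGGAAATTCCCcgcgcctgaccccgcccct
Tnfaip3: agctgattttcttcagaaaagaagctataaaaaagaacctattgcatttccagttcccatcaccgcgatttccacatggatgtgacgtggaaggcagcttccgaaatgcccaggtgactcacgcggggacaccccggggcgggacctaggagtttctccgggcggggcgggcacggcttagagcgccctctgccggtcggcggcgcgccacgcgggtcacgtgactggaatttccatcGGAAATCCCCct
Nfkb2: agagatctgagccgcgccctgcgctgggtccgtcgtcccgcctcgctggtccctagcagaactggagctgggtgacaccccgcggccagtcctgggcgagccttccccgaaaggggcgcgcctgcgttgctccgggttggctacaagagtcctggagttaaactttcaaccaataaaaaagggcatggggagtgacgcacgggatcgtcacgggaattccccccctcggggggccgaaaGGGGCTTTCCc
Searches of the same windows for TTCNNNGAA, a STAT5 half-site pair, found 2 of 26 windows of the IL-2 list (Socs3 and Il7r), against 7.02% of all windows. Of the 26 windows of the TCR list, 1 held the AP-1 letters TGANTCA (6.75% of all windows) and 0 held AAAGGTCA, the NR4A monomer site (1.34% of all windows). A match is a run of letters and says nothing of binding. The 4 motifs were chosen after such matches had been looked at.

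More transcription factors of the T lineage were lower than higher in Treg cells, and those of helper subsets were mostly higher. On the T lineage and CD4 fate list 11 of 22 tested genes were lower and 5 higher, with a median change of -0.32. Tcf7, the factor TCF-1, stood at 607, 539 and 574 CPM in Treg, against 1607, 1432 and 1329 CPM in CD4SP libraries (log2 change -1.34, SE 0.0772, adjusted p = 1.48e-14). Its relative Lef1 stood at 572, 543 and 537 CPM in Treg, against 1295, 1139 and 1084 CPM in CD4SP libraries (log2 change -1.09). Satb1, a chromatin organiser, stood at 382, 371 and 344 CPM in Treg, against 827, 655 and 758 CPM in CD4SP libraries (log2 change -1.03). Each stood at about 1 log2 unit below CD4SP cells with no overlap. Ikzf1 (Ikaros) also fell (-1.13), as did Id2 (-1.52), Runx3 (-1.49), Zbtb7b, the CD4 lineage factor ThPOK (-0.80), Id3 (-0.54) and Runx1 (-0.44). Gata3 rose, at 395, 411 and 396 CPM in Treg and 171, 162 and 148 CPM in CD4SP cells (log2 change 1.32), and so did Ikzf3 (Aiolos, 1.33) and Tox (0.94). Quiescence factors were mixed, with 4 higher and 6 lower of 18 tested and a median change of -0.15. These are 22.2% and 33.3%, against 26.8% and 21.6% of all genes tested. Klf13 (-0.54) and Foxp1 (-0.42) were lower. Klf2, which drives the exit receptors, was lower too, at 47.6, 51.6 and 47.0 CPM in Treg and 74.0, 69.2 and 62.0 CPM in CD4SP cells (log2 change -0.49), but without CD4SP library 1 it did not pass (-0.43, adjusted p = 0.0545). Bach2 (152 ± 4.66 CPM in Treg, 153 ± 5.74 CPM in CD4SP) and Foxo1 (293 ± 14.2 CPM in Treg, 330 ± 15.7 CPM in CD4SP) were not called. Fitted on the 6 compared libraries alone, Foxo1 was lower (-0.18, adjusted p = 0.0277).

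Of 21 tested helper and effector factors 19 were higher and 1, Id2, was lower, with a median change of 1.89. Bhlhe40 stood at 155, 169 and 172 CPM in Treg, against 1.89, 2.32 and 2.42 CPM in CD4SP libraries (log2 change 6.21, adjusted p = 6.11e-19). Maf, a driver of IL-10, stood at 35.8, 44.1 and 45.6 CPM in Treg, against 2.75, 4.04 and 3.70 CPM in CD4SP libraries (log2 change 3.56). Rora, known for innate and type 17 lymphocytes, stood at 32.6, 33.7 and 40.1 CPM in Treg, against 7.01, 4.16 and 4.27 CPM in CD4SP libraries (log2 change 2.81). These groups lay well apart. Prdm1 (Blimp-1) rose by 1.87 and Batf by 0.88. Tbx21, the Th1 factor T-bet, was scarce in both groups, with 49 counts over the Treg and 12 over the CD4SP libraries, at 0.153, 0.233 and 0.905 CPM in Treg and 0.111, 0.202 and 0.0268 CPM in CD4SP. Its groups overlapped, and its call (log2 change 1.89) was lost without Treg library 3 (0.70, adjusted p = 0.469), without CD4SP library 1 (1.88, adjusted p = 0.0539) and without CD4SP library 3 (1.42, adjusted p = 0.122), and with limma voom (1.73, adjusted p = 0.103).

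Genes of mature CD4SP thymocytes were lower in Treg cells almost without exception. Of 23 tested members 20 were lower and 1 higher, with a median change of -0.68. Igfbp4, an insulin-like growth factor binding protein, stood at 17.5, 18.4 and 21.0 CPM in Treg, against 407, 371 and 379 CPM in CD4SP libraries (log2 change -4.35, adjusted p = 2.47e-17). The gene listed as 2610019F03Rik stood at 27.1, 29.2 and 27.8 CPM in Treg, against 160, 154 and 135 CPM in CD4SP libraries (log2 change -2.42). Actn1, an actin cross-linker, had 222 ± 15.1 CPM in Treg and 524 ± 11.8 CPM in CD4SP cells (log2 change -1.24). All 3 had groups that did not overlap. Without CD4SP library 1 the count higher was 0.

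The list of positively selected immature thymocytes gave no single direction. Of 23 tested members 7 were higher and 5 lower, and 11 were not called (median change 0.45). The shares, 30.4% higher and 21.7% lower, were close to the 26.8% and 21.6% of all genes tested. With the 6 compared libraries alone the count lower was 8 of 22. The recombinase gene Rag1 stood at 14.8, 2.20 and 7.67 CPM in Treg, against 3.49, 3.71 and 5.53 CPM in CD4SP libraries (log2 change 0.96, adjusted p = 0.317). Rag2 stood at 4.45, 2.43 and 2.66 CPM in Treg, against 3.26, 1.64 and 2.92 CPM in CD4SP libraries. Treg libraries differed from each other in Rag1 more than the groups did. Cd24a, a surface antigen lost during maturation, stood at 29.0, 23.0 and 27.6 CPM in Treg and 12.2, 12.8 and 17.4 CPM in CD4SP cells. Its groups did not overlap but it was not called (log2 change 0.91, adjusted p = 0.118), except when the 6 compared libraries were fitted alone (adjusted p = 9.42e-05). Cd38 was higher (log2 change 4.28), while Themis, needed for positive selection, was lower, at 166, 139 and 142 CPM in Treg and 360, 343 and 382 CPM in CD4SP cells (log2 change -1.28).

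Receptors for exit and homing were sorted by kind. Of 27 tested members 16 were higher and 7 lower, with a median change of 0.43. S1pr1, the sphingosine phosphate receptor needed to leave the thymus, stood at 710, 698 and 657 CPM in Treg, against 1013, 975.3 and 850 CPM in CD4SP libraries (log2 change -0.46). Ccr7, which guides thymocytes to the medulla, stood at 912, 860 and 840 CPM in Treg, against 1244, 1223 and 1066 CPM in CD4SP libraries (log2 change -0.44). Both fell by small amounts with no overlap, as did Gpr183 (-0.90) and S1pr4 (-0.49). Receptors of tissue and effector cells rose by far more. Ccr6, the receptor of CCL20, stood at 288, 259 and 283 CPM in Treg, against 0.556, 0.656 and 0.456 CPM in CD4SP libraries (log2 change 8.94, SE 0.266). Itgae (CD103, which binds E-cadherin) stood at 146, 182 and 219 CPM in Treg, against 1.67, 2.25 and 2.09 CPM in CD4SP libraries (log2 change 6.48). Cxcr3 rose by 3.58, Ccr4 by 2.51, Cd44 by 1.64 and Ccr8 by 0.92 log2 units. Ccr9, which marks recent thymocytes, was not called, at 152 ± 12.6 CPM in Treg and 150 ± 32.9 CPM in CD4SP cells (SD, n = 3 each).

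Suppressive mediators rose, while cytokine transcripts stayed scarce. Of 23 tested genes on the cytokine and effector list 16 were higher and 2 lower. The median change was 3.29, or 2.56 with the 3 genes that had 0 counts in CD4SP cells set at their lower bound. Nt5e (CD73) and Entpd1 (CD39), which turn extracellular ATP into adenosine, were both higher. Nt5e stood at 388, 430 and 393 CPM in Treg, against 20.8, 25.7 and 22.1 CPM in CD4SP libraries (log2 change 4.14). Entpd1 stood at 47.3, 46.0 and 41.7 CPM in Treg, against 0.742, 1.24 and 0.751 CPM in CD4SP libraries (log2 change 5.59). Ebi3, a subunit of IL-35 and IL-27, stood at 21.1, 20.0 and 22.1 CPM in Treg, against 0.0371, 0.0757 and 0 CPM in CD4SP libraries, with 4 counts over the CD4SP group. The groups of these 3 did not overlap, and CD4SP cells kept a countable level of Nt5e. Il10 had 302 counts over the Treg group and 0 over the CD4SP group, at least 95.8-fold higher in Treg cells when 3 counts over the group serve as floor. Areg, a repair factor, had 117 counts against 0 in CD4SP, at least 37.1-fold higher. Ifng had 111 counts against 6 in CD4SP cells (log2 change 4.10). The lower genes were Il21 (15 counts in Treg, 107 in CD4SP) and Il4 (3 counts in Treg, 35 in CD4SP). For Il4 the level in CD4SP cells was 12.3 times that in Treg cells (95% Poisson interval 4.2 to 59.5, counting error only). Lgals1, which encodes galectin-1, was not called (178 ± 19.3 CPM in Treg, 220 ± 17.2 CPM in CD4SP; log2 change -0.31, adjusted p = 0.0704). It was lower with the replicate block (-0.31, adjusted p = 0.0275), without Treg library 3 (-0.40, adjusted p = 0.041) and with the 6 compared libraries alone (-0.31, adjusted p = 0.00523).

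Receptors of the IL-1 family mostly rose, with 7 of 10 tested genes higher, 2 lower and a median change of 2.08. Il1r2, a decoy that binds IL-1 without signalling, stood at 135, 132 and 165 CPM in Treg, against 0.371, 0.0505 and 0.161 CPM in CD4SP libraries (log2 change 9.66). Il1rl1 (ST2, the IL-33 receptor) stood at 5.72, 6.99 and 5.25 CPM in Treg, against 0.0371, 0 and 0.134 CPM in CD4SP libraries (log2 change 6.59). Il18r1 rose by 0.91. The lower ones were Il1rl2, the IL-36 receptor, at 1.02, 0.832 and 1.41 CPM in Treg and 10.2, 11.3 and 10.8 CPM in CD4SP cells (log2 change -3.30), and the adaptor Myd88 (-0.50).

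TGF-beta genes moved in both directions, 8 higher and 7 lower of 19 tested, with a median change of 0.083. Proteins that present and release the cytokine were higher. Lrrc32 (GARP, chr7:98489305-98501831), which displays latent TGF-beta at the surface, stood at 315, 318 and 299 CPM in Treg, against 0.519, 0.303 and 0.107 CPM in CD4SP libraries (log2 change 10.04, SE 0.188, adjusted p = 1.86e-25). Itgb8, an integrin subunit that frees it, stood at 37.6, 33.2 and 42.1 CPM in Treg, against 0.223, 0.177 and 0.241 CPM in CD4SP libraries (log2 change 7.45). The receptors diverged. Tgfbr1 stood at 321, 325 and 304 CPM in Treg, against 47.2, 65.8 and 64.8 CPM in CD4SP libraries (log2 change 2.42). Tgfbr2 stood at 124, 122 and 112 CPM in Treg, against 276, 245 and 250 CPM in CD4SP libraries (log2 change -1.11). Tgfbr3, the co-receptor betaglycan, stood at 26.2, 27.3 and 25.6 CPM in Treg, against 146, 138 and 145 CPM in CD4SP libraries (log2 change -2.44). One signalling receptor was thus higher and its partner lower, with no overlap in any of the 3. Tgfb1 itself was not called (4.31 ± 1.03 CPM in Treg, 3.25 ± 0.0899 CPM in CD4SP), though it passed without Treg library 2 (log2 change 0.58, adjusted p = 0.0212). Smad3 was not called (36.3 ± 1.22 CPM in Treg, 38.7 ± 3.38 CPM in CD4SP).

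The TCR complex and its proximal kinases were lower. Of 30 tested genes 17 were lower and 8 higher (5 higher without Treg library 2), with a median change of -0.35. Cd3g stood at 916, 954 and 962 CPM in Treg, against 1868, 1981 and 1959 CPM in CD4SP libraries (log2 change -1.04, adjusted p = 1.22e-12). Lck, the kinase bound to CD4, stood at 1737, 1647 and 1660 CPM in Treg, against 2490, 2457 and 2322 CPM in CD4SP libraries (log2 change -0.53). Cd3e fell by 0.35 and Sit1, a signalling adaptor, by 1.22. None of these 4 overlapped. The higher members included negative regulators, the ubiquitin ligase Cblb (0.90) and Ubash3b (0.93), as well as Sla (0.55). The PI3K and mTOR list was split, 7 higher and 8 lower of 24 tested (median 0.12). Its share higher, 29.2%, was near the 26.8% of all genes tested, and its share lower was 33.3% against 21.6%. Phlpp1, a phosphatase that removes phosphate from AKT, stood at 80.2, 85.2 and 78.0 CPM in Treg, against 5.23, 3.83 and 3.41 CPM in CD4SP libraries (log2 change 4.30). The PI3K inhibitor Pik3ip1 fell by 0.84. Pdk1, which is counted on this list, fell by 1.46, but it encodes a pyruvate dehydrogenase kinase and not the PI3K pathway kinase of like name.

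Survival genes of both kinds were higher. On the BCL2 and death receptor list 16 of 23 tested genes were higher and 3 lower, with a median change of 0.49. Bcl2 stood at 697, 668 and 696 CPM in Treg, against 547, 443 and 477 CPM in CD4SP libraries (log2 change 0.49). Its relative Bcl2l1 rose by 1.61. The death-promoting Bcl2l11 (BIM) stood at 70.9, 81.8 and 72.9 CPM in Treg, against 44.4, 39.1 and 40.8 CPM in CD4SP libraries (log2 change 0.86). Fasl (-1.63), Birc5 (-1.25) and Bak1 (-0.51) were lower. The last was called only by a narrow margin and was lost without any one of Treg library 1, Treg library 3 and the 3 CD4SP libraries, at -0.42 (adjusted p = 0.144) to -0.55 (adjusted p = 0.0527).

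Transcripts of dividing cells were lower in Treg cells. Of 33 tested cell cycle genes 20 were lower and 4 higher, with a median change of -0.57. Top2a stood at 108, 111 and 142 CPM in Treg, against 276, 337 and 372 CPM in CD4SP libraries (log2 change -1.45, adjusted p = 4.05e-07). Mki67 stood at 45.2, 44.4 and 64.2 CPM in Treg, against 95.3, 97.2 and 113 CPM in CD4SP libraries (log2 change -0.99). The cyclin Ccnd3 fell by 0.87. Cdkn1b, the inhibitor p27, stood at 236, 255 and 241 CPM in Treg, against 168, 148 and 179 CPM in CD4SP libraries (log2 change 0.57). In Top2a and Mki67 every Treg library lay below the CD4SP libraries, and in Cdkn1b every one lay above. Of the 4 higher genes on the list 2 rose by more than 1 log2 unit. Ccnd2 was not called (1892 ± 127 CPM in Treg, 2061 ± 160 CPM in CD4SP).

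Interferon response genes leaned lower, with 13 of 28 tested members lower, 3 higher and a median change of -0.26. Without Treg library 1 the count lower was 8, and without Treg library 2 or without CD4SP library 1 the count higher was 1. Ifi44 (-1.45), Ddx58 (RIG-I, -0.53) and Irgm1 (-0.53) fell. Gbp3 was the large exception, with 116 ± 6.32 CPM in Treg and 17.5 ± 3.46 CPM in CD4SP cells (log2 change 2.72). The other rises, Stat2 (0.35) and Gbp7 (0.26), were lost when single libraries were left out. Stat2 was lost without Treg library 2 (0.30, adjusted p = 0.076), without CD4SP library 1 (0.32, adjusted p = 0.069) and without CD4SP library 3 (0.32, adjusted p = 0.0672). Gbp7 was lost without Treg library 2 (0.25, adjusted p = 0.0523) and without CD4SP library 1 (0.19, adjusted p = 0.132). Isg15 and Irf7, at -0.51 and -0.40, were called lower, but Isg15 lost its call without Treg library 1 (-0.43, adjusted p = 0.14), without Treg library 3 (adjusted p = 0.0958), without CD4SP library 2 (-0.36, adjusted p = 0.2) and without CD4SP library 3 (-0.46, adjusted p = 0.106), and with DESeq2 (-0.50, adjusted p = 0.0634). Irf7 lost it without Treg library 1 (-0.32, adjusted p = 0.129), without Treg library 3 (-0.41, adjusted p = 0.0547) and without CD4SP library 2 (-0.29, adjusted p = 0.149).

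Metabolic lists showed smaller shifts. All 11 called genes of 17 tested for cholesterol synthesis were higher (median 0.50), among them the regulator Srebf2 (0.59), Sc5d (0.61) and Insig1 (0.90). Of 15 glycolysis genes 6 were higher and 1 lower (median 0.32). The glucose transporter Slc2a3 stood at 171, 176 and 174 CPM in Treg, against 47.9, 60.4 and 53.7 CPM in CD4SP libraries (log2 change 1.69), and Hk2 rose by 3.70. Ldha, which makes lactate, was the lower one (-0.37). Slc2a1 was not called (55.7 ± 3.65 CPM in Treg, 47.5 ± 5.94 CPM in CD4SP), but passed with the replicate block (0.24, adjusted p = 0.0284) and without CD4SP library 1 (0.31, adjusted p = 0.0449). Gapdh, Pgk1, Pgam1 and Eno1, named after their values were seen, averaged only 1.86 to 18.4 CPM in either group. They have near-identical copies elsewhere in the genome that can take or void their reads, so their levels are uncertain.

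Chromatin regulators gave 5 higher and 8 lower of 21 tested, with a median change of -0.17. These are 23.8% and 38.1%, against 26.8% and 21.6% of all genes tested. The count lower fell to 4 or 5 without any one of 5 of the 6 libraries, CD4SP library 2 being the exception. Hdac9, a class II histone deacetylase, stood at 57.0, 36.7 and 52.9 CPM in Treg, against 0.185, 0.202 and 0.349 CPM in CD4SP libraries (log2 change 7.59). Tet1, which oxidises methylcytosine, stood at 48.8, 47.9 and 44.5 CPM in Treg, against 107, 108 and 114 CPM in CD4SP libraries (log2 change -1.22). Its relative Tet2 was higher by 0.43, so the 2 demethylation enzymes went opposite ways. The methyltransferase Dnmt3a rose by 0.62. Dnmt1 fell by 0.29 and lost its call without Treg library 1 (-0.25, adjusted p = 0.0858), Treg library 2 (-0.24, adjusted p = 0.0905) or CD4SP library 1 (-0.27, adjusted p = 0.053). Ezh2 was not called (58.7 ± 3.32 CPM in Treg, 51.2 ± 5.84 CPM in CD4SP). On the S100, annexin and galectin list 9 of 19 were higher and 4 lower (median 0.52), with S100a4 at 9.66, 14.7 and 18 CPM in Treg and 0.223, 0.454 and 0.698 CPM in CD4SP cells (log2 change 4.87), Ahnak up by 3.46 and Anxa2 up by 1.43.

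**Figure D3:**
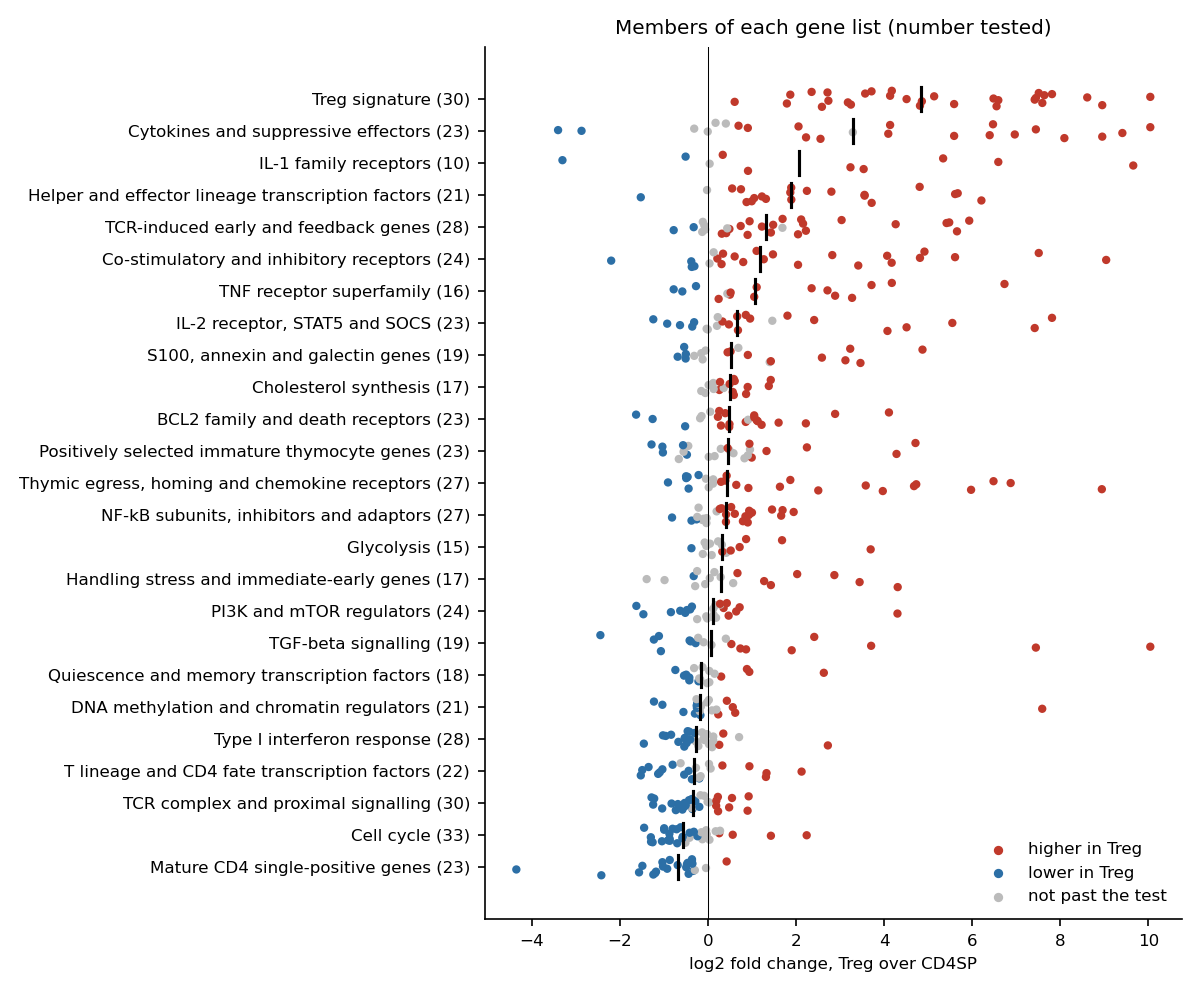
Each point is a tested member of a gene list placed by its log2 fold change of Treg over CD4SP (x axis), red where higher, blue where lower and grey where not called, with the number tested in brackets and a black bar at the list's median. Medians run from 4.84 for the Treg signature at the top to -0.68 for mature CD4SP genes at the bottom, and most lists hold genes of both directions. Some genes are on several lists.

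The 12 largest rises, among genes with at least 10 CPM in Treg cells and no overlap, were not all classical Treg genes. Tff1, a secreted trefoil peptide known from the stomach (chr17:31161395-31165060), stood at 10.7, 15.1 and 16.8 CPM in Treg libraries with 0 counts over the CD4SP group, at least 490-fold higher. Ptrf, which encodes the caveolar protein cavin-1, stood at 86.5, 79.5 and 77.8 CPM in Treg, against 0, 0.101 and 0.0537 CPM in CD4SP libraries, with 6 counts over the CD4SP group. Gbp1 stood at 26.6, 34.0 and 33.9 CPM in Treg and had 2 counts over the CD4SP group, a ratio of 1620 (95% Poisson interval 450 to 13400), and Gbp genes have near-identical copies that may split reads. In all 3 CD4SP cells held next to none of the transcript. Peli2, an E3 ligase of the IL-1 receptor pathway, had 1221 counts in Treg and 1 in CD4SP, a ratio of 1160 (interval 209 to 45900). Cd80, a ligand of CD28 and CTLA-4, had 1352 counts in Treg and 2 in CD4SP, a ratio of 643 (interval 178 to 5310). Coro2a, a coronin, stood at 147, 143 and 144 CPM in Treg, against 0.890, 0.151 and 0.778 CPM in CD4SP libraries (log2 change 7.97). The smooth muscle actin gene Actg2 stood at 21.9, 36.8 and 39.3 CPM in Treg, against 0.0742, 0.177 and 0.134 CPM in CD4SP libraries (log2 change 7.88). Serpina3g, a serpin of lymphocytes with close paralogs, rose by 8.24. The other 4 of the 12, Lrrc32, Il1r2, Ebi3 and Ccr6, are given above.

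The 12 largest falls were smaller than the rises. Pdlim4, a protein that binds actin-associated partners (chr11:54054928-54069032), stood at 0.814, 0.499 and 0.653 CPM in Treg, against 48.3, 33.9 and 30.3 CPM in CD4SP libraries (log2 change -5.81, SE 0.340). Ggt5, a gamma-glutamyl transferase, stood at 0.890, 0.566 and 1.58 CPM in Treg, against 41.1, 36.6 and 32.3 CPM in CD4SP libraries (log2 change -5.14). Nacc2 stood at 1.35, 1.30 and 1.005 CPM in Treg, against 28.2, 39.1 and 30.1 CPM in CD4SP libraries (log2 change -4.74). Treg cells kept low but countable levels of each. Hs3st3b1, a heparan sulphate sulphotransferase, stood at 9.41, 11.1 and 9.75 CPM in Treg, against 199, 196 and 152 CPM in CD4SP libraries (log2 change -4.18). Vipr1, the receptor of vasoactive intestinal peptide, stood at 3.36, 4.03 and 4.55 CPM in Treg, against 57.6, 57.3 and 59.97 CPM in CD4SP libraries (log2 change -3.87). The rest were Igfbp4, given above, Elovl7 (-4.18), Atp8b4 (-4.08), Cyp2s1 (-3.70), Abhd15 (-3.69), Ntrk3 (-3.65) and Gpr97 (-3.63).

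**Figure D4:**
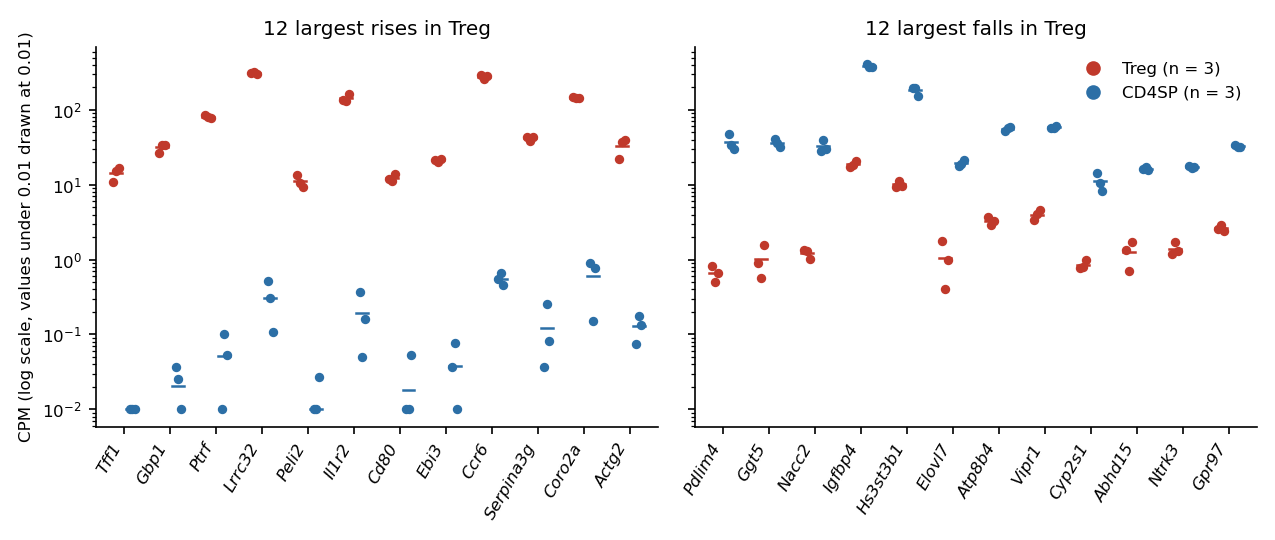
Level in each library (y axis, CPM on a log scale, values under 0.01 drawn at 0.01) of the 12 largest rises, left, and the 12 largest falls, right, with Treg libraries in red left of CD4SP libraries in blue, 3 of each, and bars at the means. No gene's groups overlap, by the rule that chose them, and the CD4SP libraries of the rises sit near 0 while the Treg libraries of the falls stay at 0.399 CPM or more.

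Transcripts of other cell types were also higher in Treg libraries. Of 15 tested myeloid markers 13 were higher and 0 lower, and their summed level was 320 to 453 CPM in Treg, against 93.4 to 102 CPM in CD4SP libraries. Lyz2, lysozyme, stood at 189, 111 and 105 CPM in Treg, against 4.53, 3.31 and 8.08 CPM in CD4SP libraries (log2 change 4.66). Csf1r, the macrophage growth factor receptor, stood at 10.8, 10.3 and 7.57 CPM in Treg, against 0.185, 0.252 and 0.563 CPM in CD4SP libraries. Itgam, an integrin of myeloid cells, averaged 6.95 CPM in Treg and 7.003 CPM in CD4SP cells and was not called. Of 12 tested B cell markers 9 were higher and 0 lower, with sums of 40.2 to 42.0 CPM in Treg and 8.80 to 9.95 CPM in CD4SP libraries. Pax5, which defines B cells, had 0 counts in both groups, so that 3 counts over a group bound it. Of 12 tested dendritic cell markers 8 were higher and 1, Ccr7, lower, with a median change of 3.27, or 3.04 with Batf3 (0 counts in CD4SP) at its lower bound. Their sum, 1370 to 1540 CPM in Treg and 1220 to 1360 CPM in CD4SP, is mostly Ccr7, Cd74 and Bst2. Cd74, the invariant chain of class II molecules, stood at 382, 429 and 332 CPM in Treg, against 53.1, 39.3 and 51.6 CPM in CD4SP libraries. Itgax had 110 counts in Treg and 3 in CD4SP, a ratio of 34.9 (95% Poisson interval 11.9 to 169). Siglech, of plasmacytoid dendritic cells, stood at 4.27, 0.532 and 0.427 CPM in Treg, so that 1 library set its value, and its call was lost without Treg library 1 (log2 change 2.41, adjusted p = 0.271). It was also lost without CD4SP library 2 (4.19, adjusted p = 0.0653), without CD4SP library 3 (4.23, adjusted p = 0.062) and with limma voom (3.39, adjusted p = 0.179). These markers moved with the group beside every list above, and their part in the results was not tested.

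Other lineages gave mixed counts. Among 9 CD8 T cell markers 3 were higher and 3 lower, with sums of 327 to 377 CPM in Treg and 144 to 154 CPM in CD4SP. Cd8b1 was lower, at 57.0, 37.1 and 37.2 CPM in Treg and 93.3, 87.0 and 86.2 CPM in CD4SP cells, whereas the cytotoxic gene Nkg7 was higher, at 132, 134 and 135 CPM in Treg and 2.89, 3.83 and 5.23 CPM in CD4SP cells (log2 change 5.04), as was the chemokine Ccl5 (6.66). Of 7 tested NK, NKT and gamma-delta markers 1, Cd160, was higher and 1, Zbtb16, lower. With the 6 compared libraries alone 4 of 6 were higher and 2 lower, and with limma voom 2 of 7 were higher and 2 lower. The count lower was also 2 with the replicate block, with no filter and with DESeq2, and 0 without Treg library 3 or without CD4SP library 2. Their sums were 34.2 to 38.4 CPM in Treg and 7.38 to 9.85 CPM in CD4SP, nearly all of it Cd160, and Ncr1 had 2 counts in Treg and 9 in CD4SP. Zbtb16, with 31 counts in Treg and 159 in CD4SP, lost its call without Treg library 2 (log2 change -2.03, adjusted p = 0.0743), Treg library 3 (-2.34, adjusted p = 0.0517) or CD4SP library 2 (-1.93, adjusted p = 0.0876). Of 7 tested stromal and epithelial markers 3 were higher and 1 lower, with sums of 295 to 336 CPM in Treg and 315 to 333 CPM in CD4SP that are mostly Pecam1. Epcam stood at 3.69, 4.09 and 5.33 CPM in Treg and 0.742, 1.06 and 1.82 CPM in CD4SP cells. Aire had 93 counts in Treg and 7 in CD4SP, while Krt5 had 9 and 0 and Foxn1 4 and 0. Psmb11, with 45 counts in Treg and 9 in CD4SP, lost its call without Treg library 2 (1.87, adjusted p = 0.0647) or CD4SP library 2 (2.14, adjusted p = 0.0534). The lower gene was Cdh5, the endothelial cadherin, with 2 counts in Treg and 373 in CD4SP libraries, where it stood 196 times as high (95% Poisson interval 54.3 to 1620). Of 5 tested erythroid and platelet markers Pf4 was higher. Their sums were 9.22 to 26.1 CPM in Treg and 4.77 to 15.1 CPM in CD4SP, and Hba-a1 had 0 counts in both groups.

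**Figure D5:**
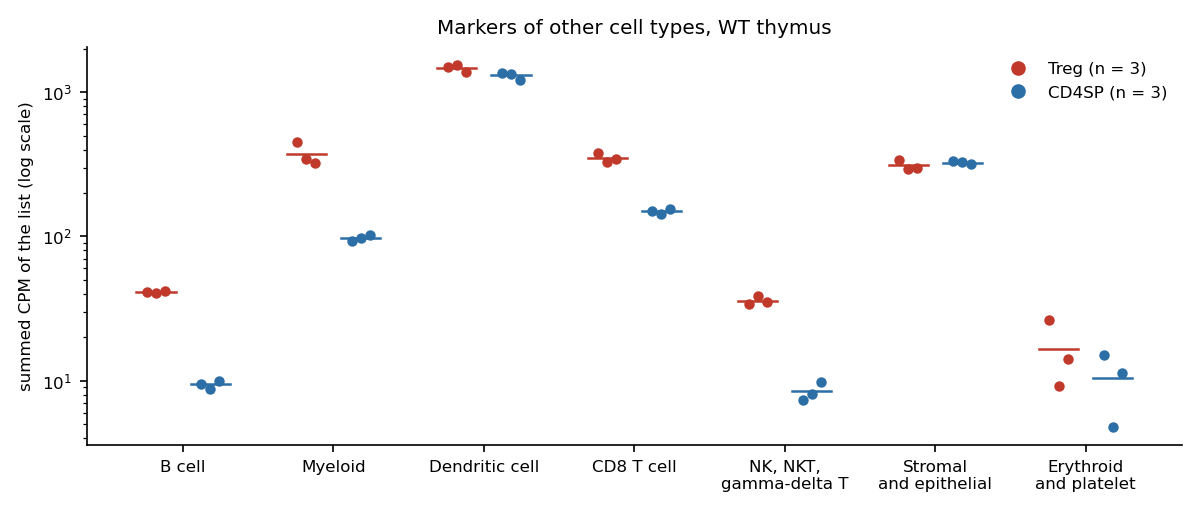
Summed CPM of the markers of 7 other kinds of cell in each library (y axis, log scale), Treg libraries in red left of CD4SP libraries in blue, 3 of each, with bars at the means. Myeloid, B cell, CD8 and NK sums, and by a small margin the dendritic cell sums, are higher in each Treg library than in any CD4SP library, while the stromal and the erythroid sums overlap. On the CD8 list 3 of 9 genes were higher and 3 lower, and Cd8b1 itself was lower in Treg libraries.

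The same contrast in mice whose Foxp3 allele lacked CNS3 shares no library with the WT contrast. Both come from 1 fit with a common filter and estimate of the spread, so their calls are not fully independent. In KO mice 7533 of the 13338 genes were called between 4 Treg and 4 CD4SP libraries (56.5%), with 4002 higher and 3531 lower. Of the genes higher in WT Treg cells 3028 were also higher in KO Treg cells, which is 84.9% of the WT and 75.7% of the KO list, and 8 were lower. Of those lower in WT Treg cells 2307 were also lower in KO Treg cells, 80.1% of the WT and 65.3% of the KO list, and 4 were higher. The 30 Treg signature genes were all higher in KO as well, and of the 20 mature CD4SP genes that fell all 20 fell in KO. Not every list repeated. The immature thymocyte list had 6 higher and 13 lower in KO (median -0.81), against 7 and 5 in WT (median 0.45). The median also changed sign for the CD8 (0.55 in WT, -0.25 in KO), NK (1.75, -1.285), erythroid (0.87, -0.49) and PI3K (0.12, -0.045) lists. Each other list had a median of the same sign in both genotypes. The difference between the genotypes' Treg effects was tested directly and passed in 82 genes (0.615%). This count was 174 with the replicate block, 32 with only the 14 thymic libraries in the fit, and 125 without KO CD4SP library 2, which stood apart from the other KO CD4SP libraries.

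Among the named genes 14 had a Treg effect that differed between genotypes, all 14 also without KO CD4SP library 2 and with the block, but 5 with the thymic libraries alone (Lrrc32, Tgfbr3, Bcl2l11, S100a11 and Capg). Foxp3 differed by more in KO mice, with a log2 change of 8.58 against 7.59 in WT (difference 0.98, adjusted p = 0.00511). Its CD4SP level was 1.44 CPM in KO and 3.37 CPM in WT. Lrrc32 differed by less, with 7.91 in KO and 10.04 in WT (difference -2.13, adjusted p = 0.000769), and its CD4SP level was 1.41 CPM in KO and 0.310 CPM in WT. Both differences thus came with shifts in CD4SP cells, where the levels are low. Satb1 fell further in KO (-1.56) than in WT (-1.03), and so did Tgfbr3 (-3.36 in KO, -2.44 in WT). Bcl2l11 changed by 0.17 in KO, where it did not pass (adjusted p = 0.0803), and by 0.86 in WT (difference -0.69, adjusted p = 0.00557).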

How the data were processed

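RNA of sorted cells was amplified by the SMART method and sequenced in pairs, per the labels' protocols. Reads were trimmed with Trimmomatic, aligned to mm10 with STAR and counted with HTSeq, per the submitters' processing notes, with versions and settings not given in the sources used here. Values as deposited are the authors' raw counts per gene. Reads in several places, duplicates and strand were handled upstream in ways not stated, so levels of genes with near-identical copies are uncertain. Summary lines that name no gene entered neither library sizes nor tests.

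Genes were filtered with filterByExpr, scaled by TMM and tested with edgeR 4.0.16 (quasi-likelihood F test, R 4.3.3) on all 28 libraries with 8 group means, and p-values were adjusted by Benjamini-Hochberg over the 13338 genes tested. The SE was derived from the F statistic. Alternatives used DESeq2 1.42.0, limma 3.58.1 voom, RLE scaling, no filter, fewer libraries, a replicate block and single libraries left out. On simulated data, 38 of 50 genes changed 1.5-fold and 47 of 50 changed 2-fold were recovered for the WT comparison. There both groups had CD4SP levels apart from a small set of changed genes, which were drawn above a minimum level. Recovery was thus not measured for scarcer genes, nor with as many genes changed as in the real contrast.

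Deviations of same-numbered WT Treg and CD4SP libraries correlated at 0.133, 0.107 and 0.107, just above the limit of 0.1 used here for pairing. The main fit did not use this pairing, and only the replicate block did. In KO libraries 1 of 4 numbers fell below that limit (-0.004). Members and lists were chosen with earlier results of these data known. Named genes are Foxp3, the 12 largest rises and 12 largest falls with at least 10 CPM and no overlap, marked list members and the 3 smallest p per list and direction. Intervals and floors of 3 counts cover counting error only. Promoters are RefSeq sequences of GRCm38.p6. Some members of the lists are counted but not reported here by name.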

Additional observations from a re-analysis of the deposited data

Results flagged for a closer look

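In 14 of 243 named genes the Treg effect differed between KO and WT mice by the interaction test of edgeR. The differences, KO minus WT on the log2 scale, were 0.98 for Foxp3, -2.13 for Lrrc32, -2.04 for Ccr6, -0.33 for Cd28 and 0.48 for Icos. They were -0.53 for Satb1, 0.67 for Il18r1, -0.92 for Tgfbr3, -0.69 for Bcl2l11 and -0.50 for Pik3ip1. They were 0.66 for S100a11, -0.54 for Themis, -0.49 for Mll1 and 0.76 for Capg. In 10 of the 14 the effect was larger in size in KO mice.

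In 4 of the 28 KO groups examined for these genes 1 library lay far from the others by Dixon's gap-to-range ratio at its 95% critical value, a level at which about 1 group in 20 is flagged by chance. Ccr6 stood at 5.77 CPM in KO CD4SP library 2, Il18r1 at 126 CPM in KO Treg library 4, Bcl2l11 at 44.3 CPM in KO CD4SP library 4 and Capg at 410 CPM in KO Treg library 2.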

How the results depend on the processing

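The 6447 genes called in WT were 6209 to 6721 with RLE scaling, no filter, the compared libraries alone, limma voom or DESeq2, and 5633 to 6019 with 1 library left out, with 3237 to 3395 higher and 2396 to 2693 lower. In KO the 7533 genes were 6972 to 7384 with 1 library left out. With the replicate block, which pairs same-numbered libraries, WT gave 6789 genes (3725 higher, 3064 lower) and KO gave 7830.

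The difference between genotypes depended most on the fit. Its 82 genes (42 higher, 40 lower in KO) became 174 with the replicate block (91 and 83), 32 with only the 14 thymic libraries (15 and 17), and 125 without KO CD4SP library 2 (56 and 69), the last chosen after seeing the data. The cause was not tested. Of 243 named genes tested, 234 had a value in all 12 alternatives, and 211 of these kept their side of the threshold in each. In all, 26 of the 243 crossed it in some alternative and 0 reversed. Of 64 list counts 10 moved by over 1.5 times in some alternative. Genes with few counts are limited by depth.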
